A study of Mus musculus with 8 samples.

Results

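The septin genes were followed in 8 RNA-sequencing libraries of mouse liver progenitor cells from controls and from embryos labelled as lacking the LATS kinases. The members were the 9 genes *Sept2*, *Sept4*, *Sept5*, *Sept6*, *Sept7*, *Sept8*, *Sept9*, *Sept10* and *Sept11*, found by their symbols among the 23467 genes of the deposited table. All 9 were among the 13421 genes tested, which had a mean of at least 1 RPKM (reads per kilobase of gene model, scaled to the library's total) over the libraries. *Sept4* had been selected on its higher value in each column of the L1L2_Alb-labelled libraries, so its difference between genotypes is given as a description without a test, and the other 8 genes were set beside it.

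Hepatoblasts of mixed B6;129 embryos at E14.5 were kept on collagen (iHBs), treated with 12.5 ng/ml oncostatin M for 5 days to obtain hepatocytes (iHPs), or placed on Matrigel for 14 days to obtain biliary epithelial cells (iBECs). Control cells, labelled wild type, gave 1 library in each of the 3 stages. The other 5 libraries, 1 iHB, 2 iHP and 2 iBEC, were labelled Lats1-/-;Lats2f/fl;Alb-cre and are called L1L2_Alb here. In these cells *Lats1* is missing from the germ line, whereas *Lats2* is removed only where the albumin promoter has driven Cre. LATS1 and LATS2 are the kinases that hold back the co-activators YAP and TAZ, and the question was what their loss does to the fate of these cells. Neither the labels nor the methods state whether the libraries of a pair are from different embryos, so the spread within a pair may be technical. In the fit over the stages, p rests on that spread and on how far the genotype difference varied between stages, each with 1 control library.

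Septins are GTP-binding proteins that join end to end into hexamers and octamers, and these into filaments and rings under the plasma membrane, at the cleavage furrow and at the base of cilia. Mammalian septins fall into subgroups named after SEPT2, SEPT6, SEPT7 and SEPT3, and as a rule a filament takes its subunits from different subgroups, with members of a subgroup able to replace each other. SEPT4 belongs with SEPT2 and SEPT5. In the liver it is known from hepatic stellate cells, and an alternative product of its gene, ARTS, binds the apoptosis inhibitor XIAP.

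Depth ran from 18436865 to 33229075 reads per library. Of the 13421 genes, 832 were called higher (6.2%) and 452 lower (3.37%) in the L1L2_Alb-labelled libraries when the stages were fitted together, 9.57% in all (limma, adjusted p under 0.05). The split of these calls moved with the scaling, with 64.8% of them higher here, 52.8% after quantile normalization and 45.2% after upper-quartile scaling. *Lats1* RNA was at 5.38 to 11.2 RPKM in the controls and 7.12 to 22.7 RPKM in the L1L2_Alb-labelled libraries, and *Lats2* RNA at 6.90 to 10.1 and 10.9 to 27.6 RPKM. Neither was lower as a group in the L1L2_Alb-labelled libraries. *Lats2* was called higher there (log2 difference 0.90, limma adjusted p = 0.0312), and *Lats1* was not called (0.44, limma adjusted p = 0.460). The paper, in contrast, reports reduced expression of LATS1 and LATS2 in L1L2_Alb cells. Since the values are per gene and do not isolate deleted exons, they cannot check the labels. Genotypes are therefore given as labelled. The 10 hepatoblast and hepatocyte markers summed to 12174 to 17421 RPKM in the controls and 10355 to 13899 RPKM in the L1L2_Alb-labelled libraries, where 4 of them fell (*Alb*, *Ttr*, *Hnf4a* and *Serpina1a*) and none rose. Among the biliary markers, *Krt7* (log2 difference 2.17, limma adjusted p = 0.00422) and *Krt19* (1.31, limma adjusted p = 0.0205) rose and *Spp1* fell (-1.50, limma adjusted p = 0.0306). The sum of the biliary markers, 2488 to 3907 RPKM in iHB and iHP libraries, 23485 RPKM in control iBEC and 6717 and 11827 RPKM in L1L2_Alb-labelled iBECs, was mostly *Spp1* in iBECs.

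*Sept4* RNA was higher in each of the 5 L1L2_Alb-labelled libraries than in the control of the same stage, from 12.2-fold in iBEC to 33.5-fold in iHP. In iHBs it stood at 15.1 RPKM in the control and 458 RPKM in the L1L2_Alb-labelled library, a ratio of 30.4. In iHPs the control had 7.25 RPKM and the L1L2_Alb-labelled libraries had 199 and 243 RPKM, ratios of 27.4 and 33.5. In iBECs the control had 1.14 RPKM and the L1L2_Alb-labelled libraries had 13.9 and 19.5 RPKM, ratios of 12.2 and 17.1. Within a stage no L1L2_Alb-labelled library reached down to its control, but across stages the groups overlapped, since control iHB lay at the level of the L1L2_Alb-labelled iBEC libraries. The reads behind these values could be recovered, and ran from 62 in control iBEC to 21483 in the L1L2_Alb-labelled iHB library, above the floor of 3 reads. In bulk RNA a difference in the number of cells of a type and in RNA per cell cannot be told apart.

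On the log2(RPKM + 1) scale, which understates the change of low genes, the differences of *Sept4* were 4.83 in iHB, 4.60 and 4.89 in iHP, and 2.80 and 3.26 in iBEC. They ranked 3, 3, 1, 50 and 44 from the top among the 13421 genes of each library. Fitted over the stages the difference was 4.14 (standard error 0.342), a 17.7-fold difference, and it lay between 3.80 and 4.78 in 13 alternative settings. *Sept4* was chosen by this contrast, so no p is given for it.

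**Figure D1:**
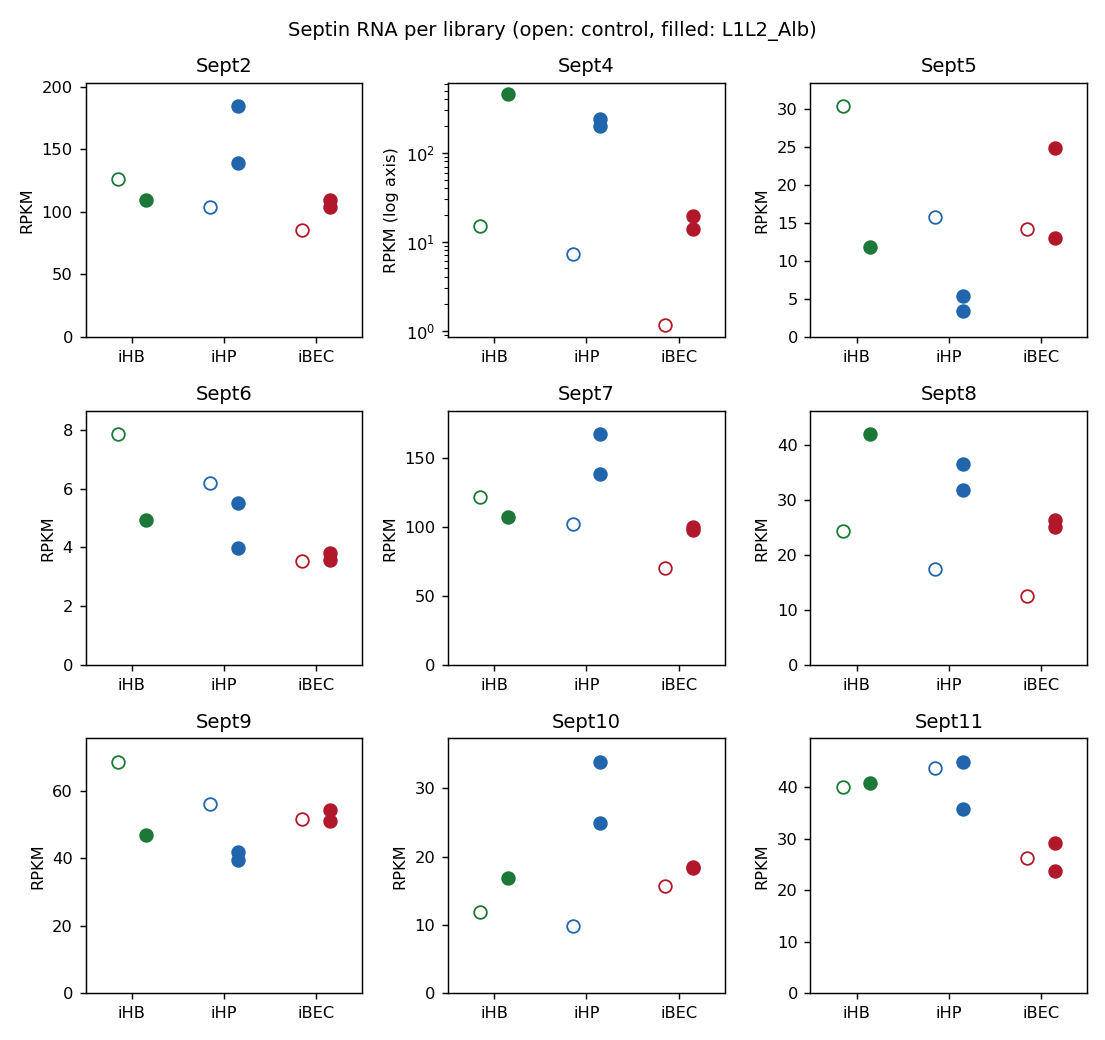
RPKM of each septin in each library, by stage, with controls as open and L1L2_Alb-labelled libraries as filled circles, on a linear axis from 0 except for *Sept4*, which has a log axis. *Sept4* sits at 13.9 RPKM or more in every filled circle and at 15.1 RPKM or less in every open circle, and the filled circles of *Sept8* and *Sept10* lie above all open circles of their panels.

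The position of *Sept4* among the stages did not enter its choice. Its RNA was ordered iHB, iHP, iBEC from high to low in both genotypes. The iHB value was 2.08 times the iHP value in controls and 2.07 times the iHP mean in L1L2_Alb-labelled cells, and it was 13.2 and 27.4 times the iBEC value. The 2 L1L2_Alb-labelled iHP values, 199 and 243 RPKM, lay apart from both neighbours in that order, 458 RPKM in iHB and 19.5 RPKM in the higher iBEC library. With genotype as a term, *Sept4* was lower in iBEC than in iHB by a log2 difference of -4.00 (standard error 0.426, 95% interval -4.98 to -3.02, limma adjusted p = 0.00208), a call kept in 11 of 11 alternative settings. Between iHP and iHB its log2 difference was -0.91 (95% interval -1.89 to 0.07, limma adjusted p = 0.609), which did not pass the test.

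The *Sept4* gene lies on chromosome 11, where RefSeq lists 4 start sites on GRCm38.p6. Windows of 300 bases, 250 before and 50 from the start, were found for 7 of the 9 septins, with 16 start sites in all. Since YAP and TAZ reach DNA through TEAD factors, often beside AP-1, the windows were searched on both strands for the TEAD core GGAATG and for the AP-1 motif TGANTCA, which reads the same on both. The TEAD core was in 2 of the 16 windows, start site 4 of *Sept4* and start site 3 of *Sept9*, and in 14.7% of 32851 RefSeq promoters. AP-1 was in 2 of the 16 and in 7.81% of all promoters, and in none of the windows of *Sept4*. In the *Sept9* window a match of AP-1 overlapped that of the TEAD core. A start site with the motif, another without it, and the first start site of *Sept8*, the paralog that changed with genotype, are shown 5′ to 3′ with the motif in capitals. The match, which reads CATTCC on this strand, begins at -59, counting back from the start. A match is only a match of letters, and the values are per gene and do not say which start was used.
*Sept4* start site 4, chr11:87580811-87581110, strand +: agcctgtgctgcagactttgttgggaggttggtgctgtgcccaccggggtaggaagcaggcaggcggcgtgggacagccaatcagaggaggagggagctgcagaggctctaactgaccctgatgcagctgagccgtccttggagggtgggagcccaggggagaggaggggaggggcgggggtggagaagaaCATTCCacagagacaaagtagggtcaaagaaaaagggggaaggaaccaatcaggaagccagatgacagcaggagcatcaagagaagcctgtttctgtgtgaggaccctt
*Sept4* start site 2, chr11:87578139-87578438, strand +: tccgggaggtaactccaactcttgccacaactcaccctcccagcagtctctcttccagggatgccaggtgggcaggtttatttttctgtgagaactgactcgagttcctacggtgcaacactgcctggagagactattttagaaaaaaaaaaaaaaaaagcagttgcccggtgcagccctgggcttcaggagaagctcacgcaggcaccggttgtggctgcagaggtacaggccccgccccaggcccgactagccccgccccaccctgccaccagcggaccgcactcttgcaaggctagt
*Sept8* start site 1, chr11:53519486-53519785, strand +: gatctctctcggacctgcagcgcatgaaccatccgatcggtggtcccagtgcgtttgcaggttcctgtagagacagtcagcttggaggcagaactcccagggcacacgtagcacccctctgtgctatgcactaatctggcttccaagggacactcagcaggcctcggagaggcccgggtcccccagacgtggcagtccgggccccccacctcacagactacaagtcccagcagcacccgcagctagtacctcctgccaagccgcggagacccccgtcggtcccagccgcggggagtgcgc

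Among the other 8 septins, *Sept2* and *Sept7* were the most abundant per length in every library. In the controls they were at 85.3 to 126 RPKM and 70.6 to 122 RPKM, followed by *Sept9* at 51.7 to 68.7 RPKM and *Sept11* at 26.2 to 43.8 RPKM. *Sept6* was the least abundant of the 8 at 3.54 to 7.87 RPKM. Without *Sept4*, the summed septin RPKM was 431, 356 and 280 in control iHB, iHP and iBEC, and 381 in iHB, 429 and 510 in iHP and 361 and 343 in iBEC in the L1L2_Alb-labelled libraries, so the groups overlapped. With *Sept4* the sums were 447, 363 and 281 RPKM in the controls and 839, 627, 753, 375 and 362 RPKM in the L1L2_Alb-labelled libraries, in the same order of stages.

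As a share of the summed septin RPKM, *Sept4* was a minor member in every control. It made up 3.38% in control iHB, 2.00% in control iHP and 0.406% in control iBEC. In the L1L2_Alb-labelled libraries it made up 54.6% in iHB, 31.7 and 32.3% in iHP, and 3.70 and 5.39% in iBEC. It was the most abundant septin in the L1L2_Alb-labelled iHB and iHP libraries, whereas in both iBEC libraries *Sept2*, *Sept7*, *Sept9*, *Sept11* and *Sept8* were above it. Of the summed RPKM of *Sept2*, *Sept4* and *Sept5*, the members of the SEPT2 subgroup here, *Sept4* made up 79.0% in iHB, 58.3 and 56.1% in iHP and 9.37 and 14.3% in iBEC, against 8.77, 5.69 and 1.13% in the controls (*Sept1*, of the same subgroup, is not in these sums). These shares repeat the contrast *Sept4* was chosen by and carry no test.

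**Figure D2:**
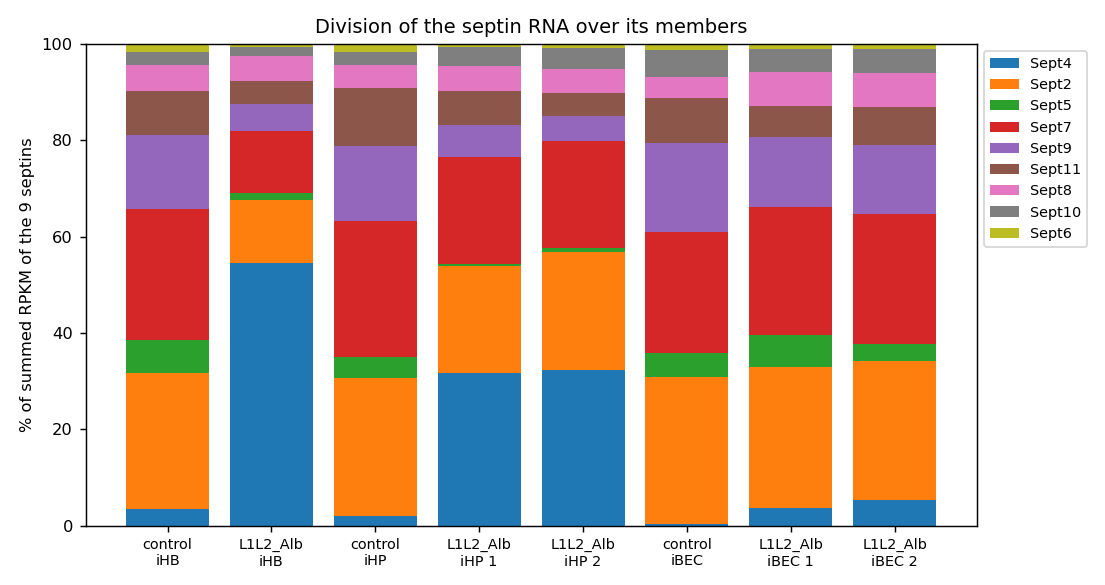
Stacked bars of each septin's percentage of the summed RPKM of the 9 septins, 1 bar per library. The *Sept4* segment at the base reaches 54.6% in the L1L2_Alb-labelled iHB library and 31.7 and 32.3% in the iHP libraries, and is 3.38% or less in the controls.

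Of the 8 septins other than *Sept4*, 1 differed between genotypes over the stages, *Sept8*, against the 6.2% of all genes called higher and 9.57% called in either direction. No septin was called lower. *Sept8*, a member of the SEPT6 subgroup, stood at 24.3 RPKM in control iHBs and 42.1 RPKM in L1L2_Alb-labelled iHBs. The iHP control had 17.4 RPKM and its L1L2_Alb-labelled counterparts 31.9 and 36.5 RPKM, and the iBEC control had 12.5 RPKM against 26.4 and 25.1 RPKM. All 5 L1L2_Alb-labelled libraries were above all 3 controls. The log2 difference was 0.91 (standard error 0.154, 95% interval 0.55 to 1.26, limma adjusted p = 0.0116), a 1.87-fold rise. The differences of the 5 libraries lay within 0.77 to 1.03, the smallest spread among the 9 septins (SD 0.115). Leaving out a stage ended the call, with limma adjusted p = 0.0624 without iHB, 0.0901 without iHP and 0.065 without iBEC, at log2 differences of 0.96, 0.89 and 0.86.

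The other members of the SEPT6 subgroup did not pass the test. *Sept10* was at 11.8, 9.82 and 15.7 RPKM in control iHB, iHP and iBEC, and at 16.9 RPKM in iHB, 24.9 and 33.9 RPKM in iHP, and 18.3 and 18.4 RPKM in iBEC in the L1L2_Alb-labelled libraries. All 5 were above all 3 controls, and the log2 difference of 0.75 (95% interval 0.15 to 1.34) had a limma adjusted p of 0.111. *Sept11* was at 40.0, 43.8 and 26.2 RPKM in the controls, and at 40.7 RPKM in iHB, 45.0 and 35.8 RPKM in iHP and 23.7 and 29.2 RPKM in iBEC in the L1L2_Alb-labelled libraries. Its groups overlapped, with a log2 difference of -0.03 (95% interval -0.42 to 0.35, limma adjusted p = 0.923). *Sept6* was at 7.87, 6.20 and 3.54 RPKM in the controls and at 4.92, 3.96, 5.50, 3.82 and 3.56 RPKM in the L1L2_Alb-labelled libraries, which overlapped too (log2 difference -0.27, 95% interval -0.74 to 0.21, limma adjusted p = 0.473).

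**Figure D3:**
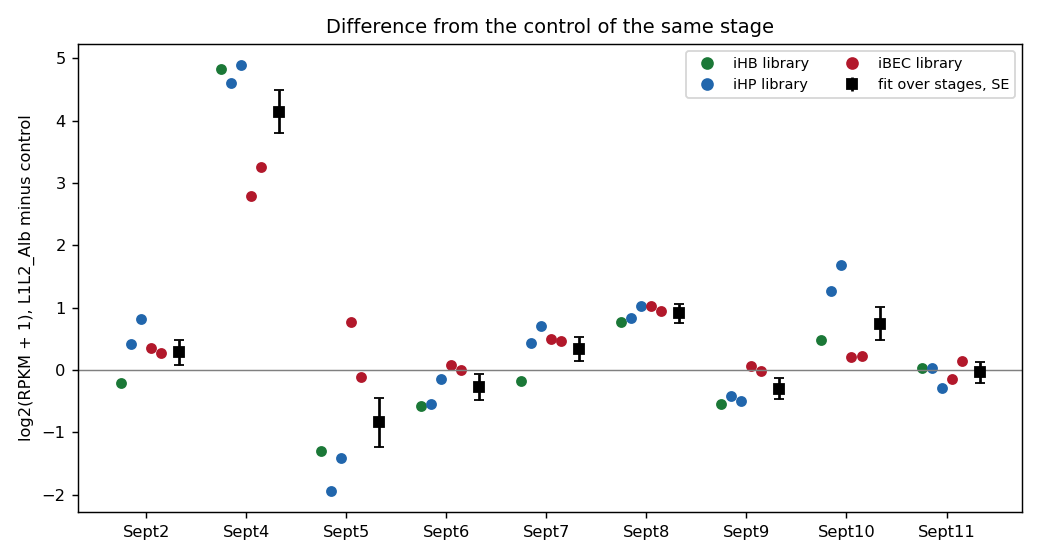
Difference in log2(RPKM + 1) between each L1L2_Alb-labelled library and the control of its stage (circles, coloured by stage), with the fit over the stages and its standard error (square and bar). The circles of *Sept4* lie at 2.80 to 4.89 and those of *Sept8* at 0.77 to 1.03, while those of *Sept5* run from -1.93 to 0.77.

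In the SEPT2 subgroup, the closest relatives of *Sept4* did not share its rise. *Sept2*, a core subunit of septin filaments, was at 126, 104 and 85.3 RPKM in control iHB, iHP and iBEC. In the L1L2_Alb-labelled libraries it was at 109.8 RPKM in iHB, 139 and 185 RPKM in iHP, and 109 and 104 RPKM in iBEC. The iHP libraries were the only ones above every control, and the log2 difference over the stages was 0.29 (standard error 0.199, 95% interval -0.17 to 0.74, limma adjusted p = 0.416).

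*Sept5*, which is abundant in neurons and platelets and takes part in vesicle release, was lower in 4 of 5 L1L2_Alb-labelled libraries. The iHB control had 30.5 RPKM against 11.9 RPKM, and the iHP control 15.9 RPKM against 3.42 and 5.36 RPKM. In iBECs the control had 14.2 RPKM and the L1L2_Alb-labelled libraries had 24.9 and 13.0 RPKM, so that 1 was above and 1 below. Its log2 difference over the stages was -0.84 (standard error 0.396, 95% interval -1.75 to 0.07, limma adjusted p = 0.228), which did not pass the test. Without the iBEC stage it was -1.51 with a limma adjusted p of 0.0253.

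*Sept7*, the only member of its subgroup and a subunit of both hexamers and octamers, was at 122, 103 and 70.6 RPKM in control iHB, iHP and iBEC. In the L1L2_Alb-labelled libraries it was at 108 RPKM in iHB, 139 and 168 RPKM in iHP, and 100.1 and 98.2 RPKM in iBEC. It was higher in 4 of 5, with a log2 difference of 0.33 (95% interval -0.10 to 0.77, limma adjusted p = 0.312). *Sept7* and *Sept2* had the closest profiles of any pair of members, with a Pearson correlation of 0.974 over the 8 libraries, which share genotype and stage.

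*Sept9*, of the SEPT3 subgroup, is the subunit that octamers have and hexamers lack. It was at 68.7, 56.2 and 51.7 RPKM in control iHB, iHP and iBEC, and at 47.0 RPKM in iHB, 41.9 and 39.6 RPKM in iHP and 54.2 and 51.2 RPKM in iBEC in the L1L2_Alb-labelled libraries. The values were lower in the iHB and iHP libraries and close to the control in the iBEC libraries, and the log2 difference of -0.30 (95% interval -0.69 to 0.08) had a limma adjusted p of 0.306. Its profile over the 8 libraries ran with that of *Sept5* (Pearson correlation 0.912) and against that of *Sept10* (-0.854).

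Other septin genes in the table were no members. *Sept1*, of the SEPT2 subgroup and known from blood cells, was at 13.3, 9.81 and 1.53 RPKM in the controls and at 3.89, 0.224, 0.0969, 0.691 and 2.02 RPKM in the L1L2_Alb-labelled libraries, a log2 difference of -1.65 with a limma adjusted p of 0.0818. *Sept3* did not exceed 0.503 RPKM, and *Sept12* was listed at 0 in every library. *Sept14* had 6 and 5 reads in 1 iHP and 1 iBEC library, both labelled L1L2_Alb, and was listed at 0 in the others.

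The genotype difference was also compared between the stages. *Sept4* apart, a moderated F test on the 6 conditions called no septin and 0% of all genes, with 733 genes at an unadjusted p under 0.05 and a smallest limma adjusted p of 0.122. The septin with the smallest p was *Sept5* (unadjusted p = 0.0453, limma adjusted p = 0.893), whose mean differences were -1.29 in iHB, -1.67 in iHP and 0.33 in iBEC. *Sept10* followed (unadjusted p = 0.0939, limma adjusted p = 0.9999), with 0.48, 1.48 and 0.22. *Sept8* had 0.77, 0.93 and 0.99, where the median over all genes was -0.09, -0.01 and 0.25. With 2 residual degrees of freedom only large differences between stages could pass.

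Between the stages themselves, *Sept4* was the only one of the 9 septins past the test from iHB to iBEC, where it fell, against 2.94% of genes called higher and 2.78% called lower (5.72% in all). *Sept8* had a log2 difference of -0.78 (95% interval -1.22 to -0.34, limma adjusted p = 0.0544), which did not pass the test, and without the second L1L2_Alb-labelled iHP library it passed at 0.0302. *Sept11* had -0.60 (95% interval -1.07 to -0.12, limma adjusted p = 0.136) and *Sept6* -0.60 (95% interval -1.20 to -0.01, limma adjusted p = 0.196). The other 5 septins lay between -0.42 for *Sept7* and 0.16 for *Sept10*. From iHB to iHP no septin and 0% of all genes were called by limma, with 1158 genes at an unadjusted p under 0.05. The largest septin difference there was that of *Sept5*, -1.23 (95% interval -2.36 to -0.09, limma adjusted p = 0.530).

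**Figure D4:**
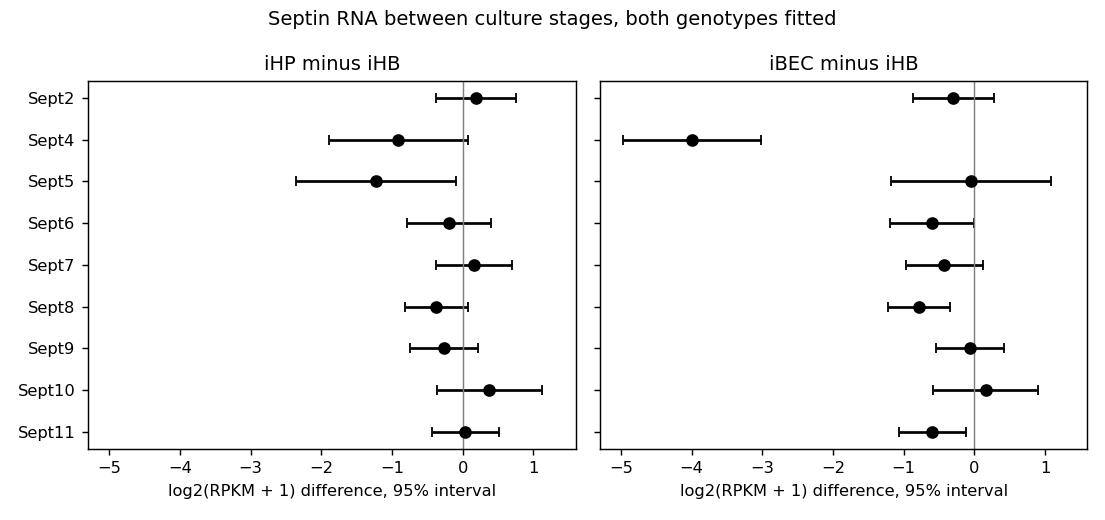
Stage differences in log2(RPKM + 1) for each septin, iHP minus iHB on the left and iBEC minus iHB on the right, as points with 95% intervals from the fit with genotype as a term. *Sept4* stands at -4.00 in iBEC, and the other septins lie between -1.23 and 0.37 in both panels.

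Markers of other cell types were read beside these values, without a test of association. For *Sept4*, the 13 stellate cell markers summed to 222 to 878 RPKM in the controls and 188 to 531 RPKM in the L1L2_Alb-labelled libraries, with none of the 8 tested called in either direction, and the defining markers *Reln*, *Gfap* and *Ngfr* did not exceed 0.51 RPKM in any library. *Lrat* was at 0.0657 to 4.02 RPKM in the controls and 0.15 to 1.46 RPKM in the L1L2_Alb-labelled libraries. The 6 mesothelial markers summed to 111 to 272 RPKM in the controls and 1064 to 3613 RPKM in the L1L2_Alb-labelled libraries. Most of that sum was *Msln* (log2 difference 3.61, limma adjusted p = 9.3e-04), *Upk1b* rose too (3.01, limma adjusted p = 0.0119), *Wt1* had 0.93 (limma adjusted p = 0.0594), *Upk3b* 0.53 (limma adjusted p = 0.528, higher in 3 of 5 libraries) and *Lrrn4* and *Gpm6a* stayed at 0.334 RPKM or less. The part of mesothelial cells in the *Sept4* values was not tested.

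The 6 neutrophil markers, such as *S100a8* and *Mpo*, summed to 13895, 9359 and 3213 RPKM in control iHB, iHP and iBEC, and to 4504 RPKM in iHB, 446 and 50.6 RPKM in iHP, and 109 and 2535 RPKM in iBEC in the L1L2_Alb-labelled libraries. They were lower than the control of the stage in 5 of 5 libraries, with none of the 6 called. The 5 megakaryocyte and platelet markers summed to 167, 152 and 55.8 RPKM in the controls and to 83.2, 35.5, 73.3, 57.8 and 206 RPKM in the L1L2_Alb-labelled libraries, with none of the 4 tested called. *Sept5*, *Sept9* and *Sept1* were lowest in the L1L2_Alb-labelled iHP libraries. In the first L1L2_Alb-labelled iBEC library, with a neutrophil sum of 109 RPKM, *Sept5* was at 24.9 RPKM and *Sept9* at 54.2 RPKM. The iBEC control had 14.2 and 51.7 RPKM. *Sept1* was at 0.691 RPKM in that library and at 1.53 RPKM in the control. Macrophage markers summed to 1208 to 2073 RPKM in the controls and 690.4 to 2895 RPKM in the L1L2_Alb-labelled libraries, erythroid markers to 2.55 to 108 and 1.57 to 22.0 RPKM, and endothelial markers to 8.21 to 24.1 and 3.01 to 22.1 RPKM. The part of blood cells in the values of *Sept5*, *Sept9* and *Sept1* was not tested.

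**Figure D5:**
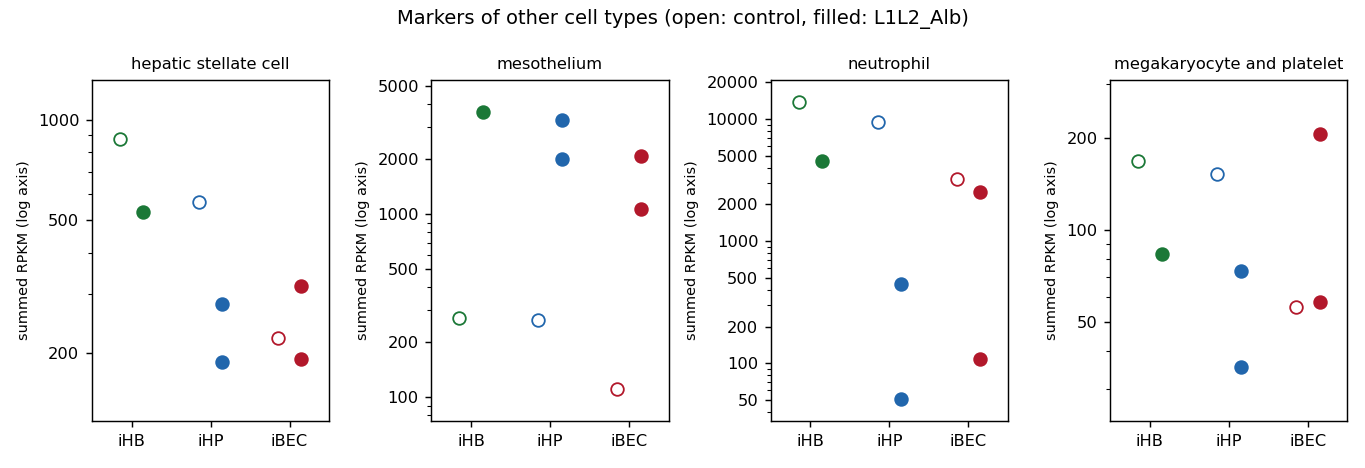
Summed RPKM on a log axis of the markers of hepatic stellate cells, mesothelium, neutrophils and megakaryocytes with platelets, by stage, with controls open and L1L2_Alb-labelled libraries filled. The mesothelial sums are 1064 RPKM or more in every filled circle and 272 RPKM or less in every open circle, whereas the filled neutrophil circles lie below the open circle of their stage.

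Genes that work with septins were read from 3 lists, beside the 6.2% of all genes called higher and 3.37% called lower. Of the 5 Borg proteins, CDC42 effectors that bind septins, 1 rose and none fell. This was *Cdc42ep5*, at 24.4, 40.6 and 20.3 RPKM in control iHB, iHP and iBEC and at 94.1 RPKM in iHB, 96.2 and 92.2 RPKM in iHP and 36.7 and 61.0 RPKM in iBEC in the L1L2_Alb-labelled libraries. Its log2 difference was 1.38 (standard error 0.223, limma adjusted p = 0.00979). The median of the list was -0.10 on the log2 scale, against 0.06 for all genes tested.

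Of 13 genes of cytokinesis and the actomyosin cortex, 12 were tested, 4 fell and none rose, against 3.37% and 6.2% of all genes. They were *Racgap1* and *Kif23*, the subunits of centralspindlin, with log2 differences of -1.20 and -1.18, the midzone bundling protein *Prc1* with -1.02, and the kinase *Aurkb* with -1.04 (limma adjusted p 0.0333, 0.0405, 0.0182 and 0.0396). *Anln*, whose product anillin recruits septins to the cleavage furrow, did not pass the test, with 0.23 and a limma adjusted p of 0.539. The median of the list was -0.54, against 0.06 for all genes. From iHB to iBEC 1 of the 12 was called, against 2.78% of all genes called lower and 5.72% in either direction. This was the non-muscle myosin *Myh10*, which fell by 2.44 on the log2 scale (limma adjusted p = 0.0107).

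Of 15 apoptosis genes connected with ARTS, 14 were tested, 2 rose and 1 fell, against 6.2% and 3.37% of all genes. *Htra2*, a mitochondrial protease that opposes the inhibitors of apoptosis, had a log2 difference of 0.91 and the anti-apoptotic *Bcl2l1* 0.88, while *Birc5*, which also acts in mitosis, had -1.22 (limma adjusted p 0.0132, 0.0378 and 0.0211). *Xiap*, the ARTS target, had 0.11 with a limma adjusted p of 0.761. The median of the list was -0.03, against 0.06 for all genes. None of the genes of the 3 lists was called between iHP and iHB by limma, where 0% of all genes were called.

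By profile over the 8 libraries, the genes most like *Sept4* on the log2 scale were *Snx30*, *Rab12*, *Vill*, *Cdc42se2*, *Calm2*, *Slc2a1*, *Cops8*, *Rasl11b*, *Rbms1* and *Tmem130*, with Pearson correlations from 0.998 to 0.987 among 13420 genes. *Rab12*, a small GTPase, was at 29.5, 25.8 and 20.6 RPKM in control iHB, iHP and iBEC and at 49.8, 43.2, 43.7, 28.2 and 31.6 RPKM in the L1L2_Alb-labelled libraries. *Tmem130* was at 8.12, 5.40 and 0.209 RPKM in the controls and at 71.8, 38.9, 52.9, 6.71 and 7.89 RPKM in the L1L2_Alb-labelled libraries. As in *Sept4*, both had their highest value in the L1L2_Alb-labelled iHB library and their lowest in control iBEC. *Sept8* was the nearest septin at rank 221 (0.949), *Sept7* was at rank 2125 (0.753) and *Sept9* at rank 12044 (-0.658). The 8 libraries share genotype and stage, so these values describe likeness only.

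The genes next to *Sept4* in RefSeq were low or did not pass the test. On the side of lower coordinates *Tex14*, *Rad51c* and *Ppm1e* did not exceed 0.805 RPKM in any library. On the other side *Hsf5* was at 0.0706 RPKM or less, *Mtmr4* had a log2 difference of 0.52 (limma adjusted p = 0.116) and *Rnf43* of 0.25 (limma adjusted p = 0.521). RefSeq places *Gp1bb*, a platelet glycoprotein gene, over *Sept5*, and *Ccni* over *Sept11*, so reads may be divided between them. *Gp1bb* was at 4.20, 2.48 and 0.93 RPKM in the controls and at 1.89, 0.67, 0.479, 3.41 and 1.26 RPKM in the L1L2_Alb-labelled libraries.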

How the data were processed

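The authors deposited 1 table of RPKM values per gene for the 8 libraries (Illumina TruSeq and HiSeq), not scaled further between libraries, and the unit was inferred from steps of single reads in short RNA genes. The submitters' processing notes name Bowtie 0.12.2 and the build mm8. Counter and annotation are not given in the sources used here. Those steps gave each library's reads, and whole reads for 3 of the 9 septins, *Sept4* among them (tolerance 0.002 read). The other septins had at least 63.0 reads per kilobase.

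Of 23471 entries, 4 with 2 repeated symbols were left out. On the log2(RPKM + 1) scale, limma 3.58.1 (R 4.3.3, eBayes with trend) was run with terms for stage and genotype on the 13421 genes whose mean RPKM reached 1, and two-sided p-values were corrected over them after Benjamini and Hochberg at a threshold of 0.05. The fit was tested on simulated data. The 13 alternatives cover pseudocount, scaling, filter, variance trend, replicate block, and libraries or stages left out. Members, lists, markers and the rule for named genes (members, called genes and the key gene of each list, the 10 genes most like *Sept4*, 3 neighbours on each side) were chosen with earlier results of these data known. A further gene list is not reported here. Promoters are from RefSeq. Python 3.11.15, numpy 2.4.6, pandas 2.3.3 and matplotlib 3.10.9 were used.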

Additional observations from a re-analysis of the deposited data

Results flagged for a closer look

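In *Sept2*, *Sept6* and *Sept7* every library labelled L1L2_Alb of a stage moved opposite to every such library of another stage, relative to the control of its own stage. *Sept2* had mean log2 differences of -0.2 in iHB, 0.616 in iHP and 0.318 in iBEC, so that iHB lay apart from iHP by -0.816 and from iBEC by -0.518. *Sept7* had -0.18 in iHB, 0.568 in iHP and 0.484 in iBEC, and iHB lay apart by -0.748 and -0.663. *Sept6* had -0.583 in iHB, -0.342 in iHP and 0.0461 in iBEC, so that iBEC was apart from iHB by -0.629 (iHB minus iBEC) and from iHP by -0.388 (iHP minus iBEC). The *Sept6* differences of the iBEC libraries were 0.0859 and 0.0063, the latter hardly a change. The median difference over all genes tested was -0.09 in iHB, -0.01 in iHP and 0.25 in iBEC, and the *Sept6* mean in iBEC lay below it, so relative to that median *Sept6* was lower in all 3 stages. The *Sept2* mean in iBEC, 0.318, lay little above that median. In iHB, *Sept2* at -0.2 and *Sept7* at -0.18 lay little below the iHB median of -0.09. The share of all genes with such opposite signs was not counted, so the pattern cannot be called particular to these 3 genes. These pairs of stages were not tested singly. The test over the 3 stages called none of these 3 genes (limma adjusted p = 0.9999 for each). Each stage has 1 control library and iHB has 1 library labelled L1L2_Alb, so the sign in iHB rests on a single pair of libraries.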

How the results depend on the processing

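Of the single-gene values recomputed under the 13 alternatives, 288 kept their direction and their side of the threshold, 3 lost the call, 2 gained one and 9 changed sign, all of them uncalled in both settings. From iHB to iBEC, *Sept5* was at 0.23 and *Sept9* at 0.22 on the log2 scale with upper-quartile scaling, and at 0.17 and 0.18 after quantile normalization. From iHB to iHP, *Sept6* was at 0.0082 after quantile normalization, and *Sept11* ran from -0.026 (first L1L2_Alb-labelled iHP library left out) to 0.134 over the libraries left out. Between genotypes, *Sept11* ran from -0.0821 to 0.0221 over the libraries left out, above 0 without the second iHP or the first iBEC library, and was at 0.0155 without the iHP stage. *Sept8* was called between genotypes in 10 of 13 (limma adjusted p 0.0123 to 0.0901). The number of septins called between genotypes, 1, was 0 without the iHB stage and 0 without the iHP stage. Without the iBEC stage it was 1, with *Sept5* called and *Sept8* not. From iHB to iBEC it was 1 to 2 over the libraries left out, 2 without the second iHP library labelled L1L2_Alb, when *Sept8* passed. Over all genes, the 1284 calls between genotypes became 686 with no filter, 844 without the first iHP and 793 without the second iBEC library labelled L1L2_Alb, 326 without iHB and 132 without iHP. The 768 calls from iHB to iBEC became 492, 1739 (second iHP library left out) and 488 (second iBEC library left out), and the 0 calls from iHB to iHP became 4 with upper-quartile scaling and 1 without the second iHP library. The cause was not tested.

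Matched by the numbers in their titles, the deviations within the iHP pair and within the iBEC pair had a correlation of -0.0216 over the 13421 genes. This single value cannot show whether libraries of the same number share an embryo, which was not tested. With the replicate block, 1 septin was called between genotypes, 0 from iHB to iHP and 1 from iHB to iBEC, as without it, *Sept8* had a limma adjusted p of 0.0182, and 29 genes differed between stages where none did before.

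Each stage has 1 control library, and differences within a single stage were not tested. The fit over stages has 4 residual degrees of freedom. A difference that did not pass in it, such as that of *Sept10*, is not thereby shown to be absent. Reads per kilobase were at least 37.9 for *Sept4* and 63.0 for the other members. The part of depth in the spread was not tested.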
